A study of Mus musculus and Bos taurus with 6 samples.

Results

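The miR-103 and miR-107 family is a pair of paralogous miRNA, each encoded in an intron of a pantothenate kinase gene. Its members were taken as the lines with a mouse or bovine list entry whose name, without the arm, was miR-103 or miR-107. This gave 9 of 3289 lines, of which 5 of 1750 stood in the mouse list and 4 of 1539 in the bovine list. The mouse list held mmu-miR-103-3p, mmu-miR-107-3p, mmu-miR-103-1-5p, mmu-miR-103-2-5p and mmu-miR-107-5p. The bovine list held bta-miR-103 and bta-miR-107, which are 3p arms, and mmu-miR-103-1-5p and mmu-miR-107-5p, which are 5p arms that carried only a mouse name.

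A miRNA is cut from a hairpin precursor whose arms give a 5p and a 3p strand, and usually 1 strand is kept in an Argonaute protein while the other is lost. The kept strand pairs with messenger RNA mainly through its seed, nucleotides 2 to 8, and lowers the output of those messages. In liver and adipose tissue of mice, miR-103 and miR-107 are known as regulators of insulin sensitivity through caveolin, and they also target Dicer, the enzyme that matures miRNA. Their hosts, the pantothenate kinases, make the first committed intermediate of coenzyme A, the carrier of acyl groups in fatty acid synthesis, which is a main task of the lactating gland.

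Small RNA was sequenced from 6 libraries in 3 groups. The Mouse group held 2 libraries of total RNA from abdominal mammary glands of primiparous FVB/N mice on day 12 of lactation. The study removed the lymph node of the gland. The AGO2 group held 2 libraries of small RNA that came down with a monoclonal antibody against Argonaute 2, the effector protein of miRNA, from the same strain, organ and day. The Bovine group held 2 libraries from mammary biopsies of multiparous Holstein cows in mid-lactation. Each was a pool of 2 cows fed a diet with forage and concentrate at 46:54. RNA of the Mouse and AGO2 groups was isolated with 1 kit and RNA of the Bovine group with another. Species, parity, way of tissue sampling, kit, pooling and diet therefore cannot be told apart in Bovine against Mouse. The study's methods describe glands from 2 mice, and it states that the AGO2 libraries came from 2 animals. The Mouse and AGO2 libraries may therefore share animals, while the main test treated them as independent. The sources used here do not say which mouse gave which AGO2 library, and the library numbers are not stated to mark shared animals.

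The counts summed to 9299807 and 8391916 in the Mouse libraries, 3909166 and 5041406 in the AGO2 libraries, and 9402483 and 10613807 in the Bovine libraries. Levels are given as reads per 1000000 reads of these sums (RPM). The study remarks that its AGO2 sample 2 held many reads of low count, which its processing later discarded. A count of 0 allows a level of up to 0.283 to 0.357 RPM in the Mouse and Bovine libraries and up to 0.767 and 0.595 RPM in the AGO2 libraries. These limits, set at 3 counts, and the intervals below cover counting error only. Marker miRNA of epithelium (7 names, with miR-200 and miR-205) were all counted in the mouse libraries, with a summed level of 161556 to 189903 RPM in Mouse and 338835 to 368937 RPM in AGO2. In Bovine, 6 of the 7 were listed and counted, at 77607 and 79458 RPM in all. The epithelial names moved in both directions in AGO2 over Mouse, so their sum does not stand for each of them. The log2 fold change was 1.58 for miR-200a-3p and 1.34 for miR-141-3p. It was -1.43 for miR-200b-3p and -1.71 for miR-200c-3p, and the other names lay between these values. The endothelial markers miR-126-3p and miR-126-5p, listed as miR-126a in mouse, summed to 24194 to 34265 RPM in Mouse and 28819 to 29280 RPM in AGO2, and to 55972 to 62356 RPM in Bovine. These arms also moved in opposite directions in AGO2 over Mouse, with log2 fold changes of -1.30 for miR-126a-3p and 1.18 for miR-126a-5p. Erythroid markers (3 names) summed to 6504 to 13343 RPM in Mouse and 15527 to 32468 RPM in AGO2. In Bovine only 2 of the names were matched, at 244 to 269 RPM. The name not matched was miR-451a, at 10773 and 5277 normalised counts per 1000000 in Mouse. The study reports it in bovine gland at moderate to high abundance, so the Bovine sum cannot be set against the mouse sums. Markers of stroma and smooth muscle summed to 54217 to 70847 RPM in Mouse, 34223 to 36639 RPM in AGO2 and 63436 to 77751 RPM in Bovine. Markers of leukocytes summed to 1263 to 2123, 2351 to 2971 and 2553 to 3285 RPM, in the same order. Muscle markers, with miR-1 listed as miR-1a in mouse, summed to 163 and 213 RPM in Mouse, 27.9 and 70.2 RPM in AGO2 and 727 and 782 RPM in Bovine. Names within the sums of stroma, muscle and leukocytes moved in both directions as well. In AGO2 over Mouse the log2 fold change was -0.79 for miR-143-3p and 0.32 for miR-145a-5p. It was -2.82 for miR-1a-3p and 2.69 for miR-133a-3p. In Bovine over Mouse it was 2.58 for miR-150-5p and -1.44 for miR-142-3p. The part of the marker miRNA in the differences of the family was not tested.

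The mature sequences of the lists show what the lines share. They are written 5′ to 3′, with the seed in capitals, and are shown because the 3p arms of the paralogues differ so little that this bears on how their reads could be told apart.
mmu-miR-103-3p: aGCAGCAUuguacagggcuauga
mmu-miR-107-3p: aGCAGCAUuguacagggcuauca
bta-miR-103: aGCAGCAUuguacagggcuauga
bta-miR-107: aGCAGCAUuguacagggcuauc
mmu-miR-103-1-5p: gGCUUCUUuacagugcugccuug
mmu-miR-103-2-5p: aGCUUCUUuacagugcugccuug
mmu-miR-107-5p: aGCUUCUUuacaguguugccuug
With positions counted from 1 at the 5′ end, miR-103-3p and miR-107-3p differed by 1 substitution, G22C, in both species. The bovine and mouse sequences were identical, except that bta-miR-107 is listed with 22 nucleotides and mmu-miR-107-3p with 23. A read that ends before position 22 therefore holds no base that tells the paralogues apart, and the sources used here do not say how such reads were counted. Each comparison below is for this reason also given for the sum of both 3p lines. The sum does not depend on how such reads were split, unless they were counted under both names. Other lines, such as mmu-miR-199a-3p and mmu-miR-199b-3p, held the same values in every Mouse and AGO2 library, so counting under both names is possible. The sum would then hold such reads under each name and would not remove the ambiguity. Among the 5p arms, the copies of miR-103 differed by G1A, and mmu-miR-103-2-5p differed from mmu-miR-107-5p by C16U.

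No other miRNA of the mouse or bovine list had the seed GCAGCAU at nucleotides 2 to 8. Read from nucleotides 2 to 7 alone, 1 predicted bovine miRNA shared it, with 0 counts in both Bovine libraries.

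All 5 mouse members matched RefSeq entries of identical sequence. The hairpins, from RefSeq with GRCm38 positions, are shown with both mature arms in capitals, because the 3p arm is the same in both miR-103 hairpins.
Mir103-1: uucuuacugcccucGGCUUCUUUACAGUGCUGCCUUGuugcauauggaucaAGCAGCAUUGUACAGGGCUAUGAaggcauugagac
Mir103-2: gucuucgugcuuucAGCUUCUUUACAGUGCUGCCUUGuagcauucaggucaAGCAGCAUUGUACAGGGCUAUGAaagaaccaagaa
Mir107: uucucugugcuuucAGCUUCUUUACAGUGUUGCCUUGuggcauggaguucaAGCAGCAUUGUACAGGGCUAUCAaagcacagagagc
Mir103-1 lies on the plus strand of chr11:35782396-35782481, within intron 5 of Pank3. Mir103-2 lies on the plus strand of chr2:131288052-131288137, within intron 5 of Pank2. Mir107 lies on the minus strand of chr19:34820687-34820773, within intron 5 of Pank1. In the GENCODE annotation each hairpin lies on the strand of its host and overlaps none of its exons. Reads of the 3p arm do not show from which of the miR-103 copies they came. Of the mature arms only the 5p arm can, and only where a read holds its first base.

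Both 3p arms were abundant in the lactating glands, and miR-103-3p exceeded miR-107-3p in all 6 libraries. The level of mmu-miR-103-3p was 28529 RPM in Mouse library 1 and 13423 RPM in Mouse library 2, from 265312 and 112645 counts. In the AGO2 libraries it was 5629 and 2780 RPM, from 22003 and 14014 counts. The level of bta-miR-103 was 12571 and 9203 RPM, from 118199 and 97681 counts. The Mouse libraries were highest and the AGO2 libraries lowest, and the 3 groups did not overlap. In normalised counts, 39.8% of the 299 miRNA tested had their AGO2 libraries below both Mouse libraries. For Bovine below Mouse the share was 37.4% of 139. How many other miRNA separate all 3 groups in this order was not tested. In whole tissue, fewer cells that hold a miRNA and less of it per cell cannot be told apart.

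The level of mmu-miR-107-3p was 5661 and 3848 RPM in the Mouse libraries, from 52647 and 32289 counts. It was 2919 and 1236 RPM in the AGO2 libraries, from 11409 and 6231 counts. The level of bta-miR-107 was 1965 and 1094 RPM, from 18479 and 11608 counts. Both Mouse libraries lay above the other 4, while the AGO2 and Bovine libraries overlapped. The shares of all miRNA tested given for miR-103-3p apply here too.

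**Figure D1:**
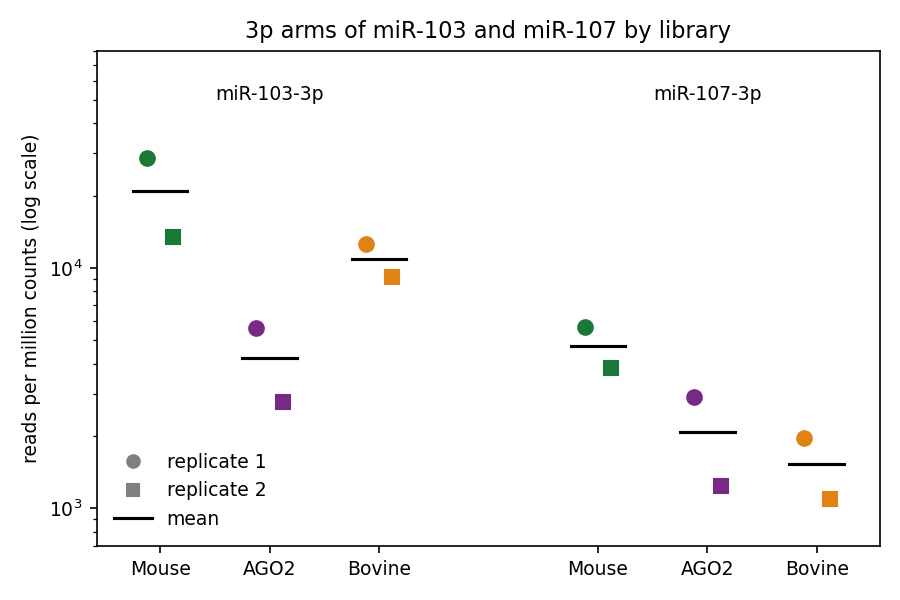
Level of miR-103-3p and miR-107-3p in each library, in RPM on a log axis. Points are the 2 libraries of a group and the line is their mean. For miR-103-3p the groups are separate, with Mouse at 13423 and 28529 RPM above Bovine and AGO2, and for miR-107-3p the AGO2 and Bovine points overlap below Mouse.

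The mean level of miR-103-3p was 20976 ± 10681 RPM (SD, n = 2) in Mouse, 10887 ± 2381 RPM (SD, n = 2) in Bovine and 4204 ± 2014 RPM (SD, n = 2) in AGO2. That of miR-107-3p was 4754 ± 1282 RPM in Mouse, 2077 ± 1190 RPM in AGO2 and 1530 ± 616 RPM in Bovine (SD, n = 2 each). By the mean of each group, miR-103-3p ranked 12 in Mouse, 27 in Bovine and 31 in AGO2, and miR-107-3p ranked 42, 70 and 52. In Mouse library 1, miR-103-3p stood at rank 7, between miR-200b-3p at 33569 RPM and let-7c-5p at 28124 RPM. In Mouse library 2 it stood at rank 17, between miR-126a-5p at 13797 RPM and miR-21a-5p at 12815 RPM. Ranks were 28 and 38 in the AGO2 libraries and 24 and 28 in the Bovine libraries. For miR-107-3p the ranks were 35 and 45 in Mouse, 49 and 63 in AGO2, and 60 and 77 in Bovine.

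The distance between the libraries of a group varied within the family. The Mouse libraries differed by 2.13 times for miR-103-3p and by 1.47 times for miR-107-3p. Over the 171 miRNA with at least 100 RPM in a Mouse library, the SD of the log2 ratio between both libraries was 0.93, and 36 of the 171 lay farther apart than miR-103-3p and 88 farther than miR-107-3p. The AGO2 libraries differed by 2.02 times for miR-103-3p and by 2.36 times for miR-107-3p, and there 45 and 28 of 167 miRNA lay farther apart. The Bovine libraries differed by 1.37 times for bta-miR-103 and by 1.80 times for bta-miR-107. Among the 172 bovine miRNA with at least 100 RPM the SD of the log2 ratio was 0.31, and 21 of them lay farther apart than bta-miR-103 and 4 farther than bta-miR-107.

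Together, the 3p arms of both paralogues took 3.42% and 1.73% of the counts in the Mouse libraries, 0.855% and 0.402% in the AGO2 libraries and 1.45% and 1.03% in the Bovine libraries. The sum did not overlap between Mouse and either other group. It also did not overlap between AGO2 and Bovine. How often the sum of other miRNA would separate the groups was not tested.

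The first comparison set the RNA that came down with AGO2 against total RNA of the gland, and asked which miRNA were found with the effector protein. The 3p arm of miR-103 fell in the AGO2 libraries, and that of miR-107 did not pass the test. The mean RPM of miR-103-3p was 4.99 times higher in Mouse than in AGO2, and its log2 fold change was -2.17 and its standard error 0.48 (adjusted p = 0.00210, edgeR quasi-likelihood test). The mean RPM of miR-107-3p was 2.29 times higher in Mouse, with a log2 fold change of -1.06 and a standard error of 0.55 (adjusted p = 0.141, edgeR). For the sum of both, the log2 fold change was -1.90 and its standard error 0.46 (adjusted p = 0.00560, edgeR).

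Only the 3p arms, 2 of the 5 mouse members, had counts above the minimum for this test. Of the 299 miRNA tested, 37 (12.4%) were lower and 46 (15.4%) higher in AGO2, and 131 had an unadjusted p under 0.05. Both 3p arms had AGO2 libraries below both Mouse libraries in counts per 1000000 after TMM normalisation (CPM), as had 119 (39.8%) of all miRNA tested. The log2 fold change was lower than that of miR-103-3p in 38 of the 299 and lower than that of miR-107-3p in 95. The call of miR-103-3p depended on AGO2 library 2, since without it the log2 fold change was -1.64 (adjusted p = 0.122, edgeR). The call of the sum was lost without AGO2 library 2 (-1.30, adjusted p = 0.235, edgeR) and without Mouse library 1 (-1.38, adjusted p = 0.0665, edgeR).

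The counts measured a share of the RNA in each library, so that less of a miRNA in AGO2 libraries is less relative to the other miRNA there. The log2 fold change of all 299 miRNA had a median of -0.12 under TMM, the normalisation of edgeR, -0.01 with the size factors of DESeq2 and -0.27 with library totals alone. Relative to these medians, miR-103-3p lay at -2.05, -2.04 and -2.05 and miR-107-3p at -0.94, -0.94 and -0.93.

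**Figure D2:**
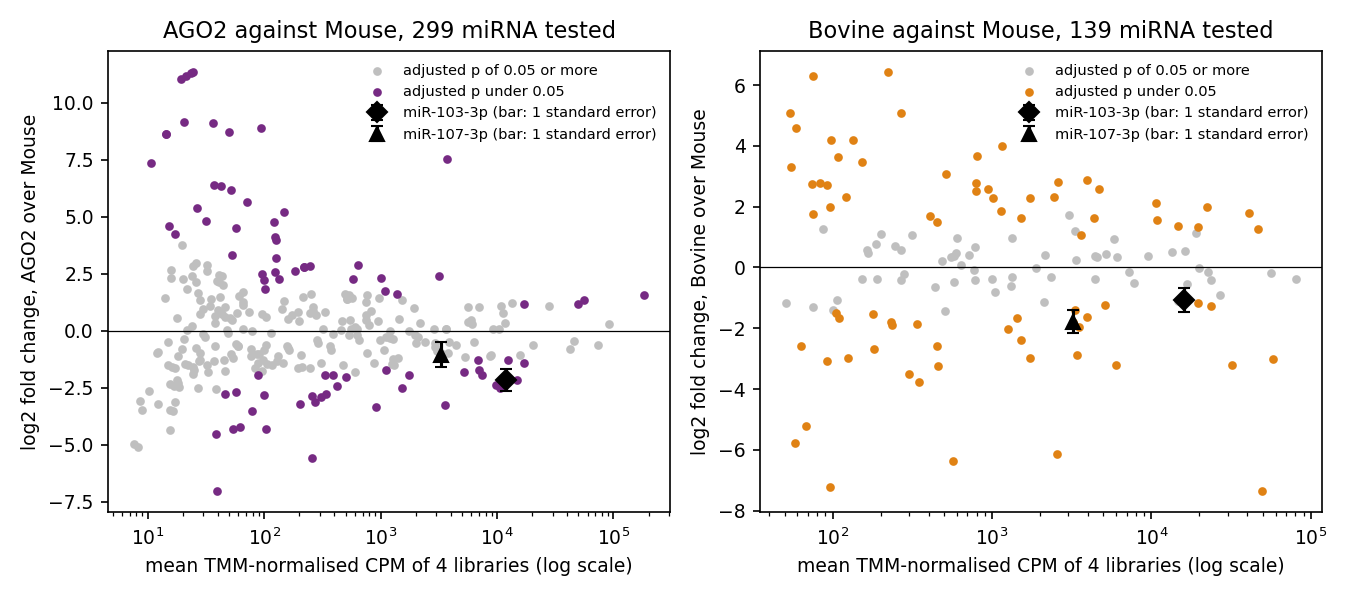
Log2 fold change of every miRNA tested against its mean TMM-normalised CPM over the 4 libraries of the comparison (log axis), for AGO2 over Mouse (left, 299 miRNA) and Bovine over Mouse (right, 139 miRNA). Coloured points have an adjusted p under 0.05, and black symbols with bars of 1 standard error are miR-103-3p and miR-107-3p. On the left miR-103-3p is at -2.17 and miR-107-3p at -1.06. On the right they are at -1.08 and -1.78.

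The ratio of the paralogues within a library differed between the 3 groups. In Mouse there were 5.04 and 3.49 counts of miR-103-3p per count of miR-107-3p. In AGO2 the ratio was 1.93 and 2.25. In Bovine it was 6.40 and 8.41. The groups did not overlap, with AGO2 lowest and Bovine highest. How often the ratio of other pairs of miRNA would separate the groups was not tested. Reads that end before position 22 bear on this ratio, and the sum of both lines does not help here. In addition, bta-miR-107 is listed with 22 nucleotides and mmu-miR-107-3p with 23.

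The mean of the log2 ratio was lower in AGO2 than in Mouse by a difference of -1.01 with a standard error of 0.29. It was higher in Bovine than in Mouse by 0.81 with a standard error of 0.33. An exact permutation test over libraries, two-sided, gave p = 0.333 for both differences, which is the smallest p that 2 against 2 libraries allow, and p = 0.333 after adjustment over both. Neither difference can therefore pass a threshold of 0.05 in this design. As a share of the family's 3p counts, miR-107-3p made up 16.6% (95% Wilson interval 16.4% to 16.7%) and 22.3% (22.1% to 22.5%) in Mouse. It made up 34.1% (33.6% to 34.7%) and 30.8% (30.1% to 31.4%) in AGO2. In Bovine the share was 13.5% (13.3% to 13.7%) and 10.6% (10.4% to 10.8%). The intervals of libraries of 1 group did not overlap, so the spread between libraries exceeded the counting error.

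**Figure D3:**
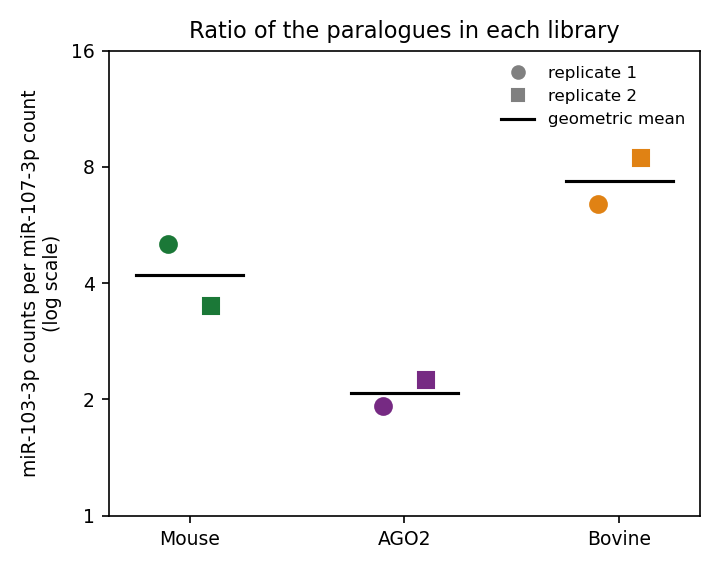
Counts of miR-103-3p per count of miR-107-3p in each library, on a log axis. Points are libraries and lines are the geometric mean of 2 libraries. AGO2 is at 1.93 and 2.25, Mouse at 3.49 and 5.04, and Bovine at 6.40 and 8.41.

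The second comparison set Bovine against Mouse, and asked which miRNA differed between the glands of both species. Both 3p arms had lower levels in Bovine, and only that of miR-107 passed the test. The mean RPM was 3.11 times higher in Mouse for miR-107-3p, with a log2 fold change of -1.78 and a standard error of 0.39 (adjusted p = 0.0113, edgeR). For miR-103-3p the mean RPM was 1.93 times higher in Mouse and the log2 fold change was -1.08 and its standard error 0.40 (adjusted p = 0.0647, edgeR). The sum had a log2 fold change of -1.23 and a standard error of 0.39 (adjusted p = 0.0384, edgeR).

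Of the 139 miRNA matched by name and tested, 36 (25.9%) were lower in Bovine and 41 (29.5%) higher, and 84 had an unadjusted p under 0.05. Both 3p arms were tested, which made 2 of the 4 bovine members, and the Bovine libraries lay below both Mouse libraries for both, as for 52 (37.4%) of the miRNA tested. The log2 fold change was lower than that of miR-107-3p in 24 of the 139 and lower than that of miR-103-3p in 42. The median log2 fold change of all 139 was 0.21 under TMM, 0.03 with the size factors of DESeq2 and 0.36 with library totals alone. Relative to these medians, miR-103-3p lay at -1.29, -1.28 and -1.30 and miR-107-3p at -1.998, -1.999 and -1.995.

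The call of miR-103-3p turned with the processing. It passed the test of DESeq2 with a log2 fold change of -1.26 (adjusted p = 0.00626), and edgeR without a filter on low counts with -1.55 (adjusted p = 0.0131). Without Mouse library 1 the log2 fold change of miR-103-3p was -0.59, and without Mouse library 2 it was -1.57. Its size thus depended on which Mouse library was kept. In these fits the spread came from the Bovine libraries alone, where the SD of the log2 ratio over all miRNA was 0.31 beside 0.93 in Mouse. No call is taken from them. Without Bovine library 2 the call of miR-107-3p was lost, at -1.63 (adjusted p = 0.132, edgeR). The call of the sum was lost without Bovine library 1 (-1.48, adjusted p = 0.0965, edgeR) and without Bovine library 2 (-1.18, adjusted p = 0.187, edgeR), and its log2 fold change was -0.75 without Mouse library 1.

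Reads of the 5p arms, the strands that are mostly lost, were few in every library. Counts of mmu-miR-103-1-5p were 5 and 5 in the Mouse libraries, 0 and 0 in AGO2 and 2 and 2 in Bovine. Counts of mmu-miR-103-2-5p were 21 and 7 in the Mouse libraries and 0 and 0 in AGO2. Counts of mmu-miR-107-5p were 7 and 10 in Mouse, 0 and 9 in AGO2 and 0 and 3 in Bovine. None of these 5p lines passed the filters of either test, and no fold change is given for them.

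In levels, mmu-miR-103-1-5p was at 0.567 ± 0.041 RPM (SD, n = 2), mmu-miR-103-2-5p at 1.55 ± 1.01 RPM and mmu-miR-107-5p at 0.972 ± 0.310 RPM in Mouse. In the AGO2 libraries the counts of 0 for the miR-103 copies allow levels of up to 0.767 and 0.595 RPM each. The limit of AGO2 library 1 lies above the level of mmu-miR-103-1-5p in both Mouse libraries, 0.538 and 0.596 RPM, and that of AGO2 library 2 lies at it, so that a loss of this arm was not detectable at this depth. For mmu-miR-103-2-5p the levels were 2.26 and 0.834 RPM in Mouse, above the limits in AGO2.

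Relative to the 3p arm of the same miRNA, the absence was less clear. The 5p arms made up 0.00980% (95% Wilson interval 0.00669% to 0.0144%) and 0.0107% (0.00609% to 0.0186%) of all miR-103 counts in the Mouse libraries. In the AGO2 libraries, 0 counts allow a share of up to 0.0136% and 0.0214%, so a lower share of 5p strands with AGO2 was not detectable at this depth. For miR-107, the 5p arm made up 0.0133% (0.00644% to 0.0274%) and 0.0310% (0.0168% to 0.0570%) in Mouse. It made up 0.144% (0.0759% to 0.274%) in AGO2 library 2, above both Mouse intervals, while AGO2 library 1 had 0 counts, which allow up to 0.0263%. The share in AGO2 library 2 rests on 9 counts in that library alone.

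**Figure D4:**
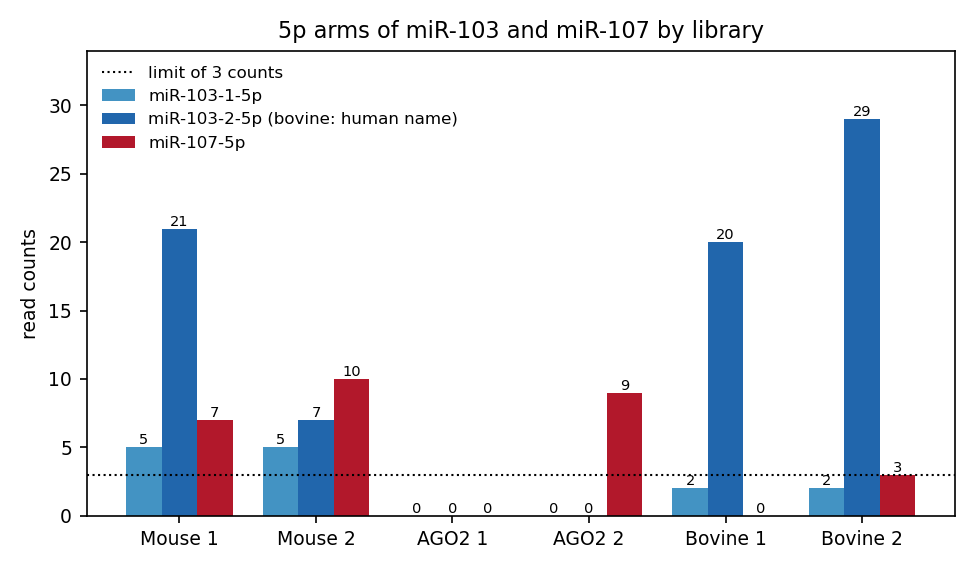
Counts of the 5p arms in each library, with the limit of 3 counts as a dotted line. The bovine bars for miR-103-2-5p are of a line listed under a human name, which is not a member. The copies of miR-103 are at 0 in both AGO2 libraries, and miR-107-5p is at 9 in AGO2 library 2.

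The 5p arms of the copies of miR-103 differ only at position 1, and the counts of each are given as listed. A read that begins after this position fits both copies, and the sources used here do not say how such reads were counted. The arm of copy 2, from the hairpin in Pank2, took 21 of 26 counts in Mouse library 1, or 80.8% (95% exact interval 60.6% to 93.4%). In Mouse library 2 it took 7 of 12 counts, or 58.3% (27.7% to 84.8%). The intervals overlapped. In the bovine list copy 2 had no line of its own under a bovine or mouse name.

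The 4 mouse libraries were used to find the miRNA whose pattern was most like that of each 3p arm, by the root mean square difference (RMS) of log2 normalised CPM, each miRNA centred on its own mean over the 4 libraries. With only 4 libraries this describes the likeness and tests nothing. The test of AGO2 against Mouse used the same libraries, so the fold changes of miRNA chosen in this way lie near that of the 3p arm by the choice itself. For miR-103-3p the nearest were let-7a-5p (RMS 0.10), miR-28a-5p (0.14), let-7f-5p (0.15), let-7c-5p (0.21) and miR-574-5p (0.26). The let-7 miRNA are a large family that holds back proliferation and is most abundant in differentiated cells. The levels of let-7a-5p were 24276 and 11038 RPM in Mouse and 3987 and 2151 RPM in AGO2, with a log2 fold change of -2.37 and a standard error of 0.50 (adjusted p = 0.00141, edgeR).

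The nearest for miR-107-3p were miR-130b-3p (RMS 0.13), miR-15a-5p (0.14), miR-34b-5p (0.16), miR-5123 (0.17) and miR-3105-5p (0.20). None of these 5 passed the test in AGO2 against Mouse, with log2 fold changes of -0.90 to -1.43. The paralogues lay at an RMS of 0.54 from each other. Thus 31 of the 298 other miRNA were nearer to miR-103-3p than miR-107-3p was, and 64 were nearer to miR-107-3p than miR-103-3p was.

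The miR-15/16 group is a larger family, known for its role in cell division, whose 5′ end is close to that of miR-103 and miR-107. Both hold AGCAGC, here in capitals, at position 1 in miR-103 and miR-107 and at position 2 in the miR-15/16 group, so that their seeds are shifted by 1 nucleotide.
mmu-miR-103-3p: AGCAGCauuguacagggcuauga
mmu-miR-15a-5p: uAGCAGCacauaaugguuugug
mmu-miR-16-5p: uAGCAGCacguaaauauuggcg
mmu-miR-497-5p: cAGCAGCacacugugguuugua
In AGO2 against Mouse, 6 of its 9 names were tested, and 0 were called higher and 0 lower by edgeR, with a median log2 fold change of -0.81 beside -0.12 over all miRNA tested. An unadjusted p under 0.05 was found for 2 of the 6, and DESeq2 called 0 higher and 1 lower. Since 12.4% of all miRNA were lower and 15.4% higher by edgeR, 0 calls among 6 are close to this background. Levels of miR-16-5p, the most abundant of them, were 14407 and 10996 RPM in Mouse and 6701 and 4370 RPM in AGO2. Its log2 fold change was -1.05 and its standard error 0.45 (adjusted p = 0.0813, edgeR), a value close to that of miR-107-3p. In Bovine against Mouse 3 names were tested and 0 were called in either direction by edgeR, with a median of 0.33 beside 0.21 over all. Members named differently in the lists were not matched or tested. Of these, miR-195a-5p had 1530 and 1143 RPM in Mouse, and miR-195-5p had 7370.5 and 6572 RPM in Bovine. Levels were 1369 and 2337 RPM for miR-322-5p in Mouse, and 1571 and 1440 RPM for miR-424-5p in Bovine. No bovine line had the name miR-16-5p. None of the 3 names tested had an unadjusted p under 0.05 and DESeq2 called 0. With edgeR, 25.9% of all miRNA were lower and 29.5% higher, and 3 names are too few to set against this background. There miR-15a-5p had 5470 and 3053 RPM in Mouse and 6690 and 5914 RPM in Bovine, with a log2 fold change of 0.43 and a standard error of 0.34 (adjusted p = 0.323, edgeR).

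**Figure D5:**
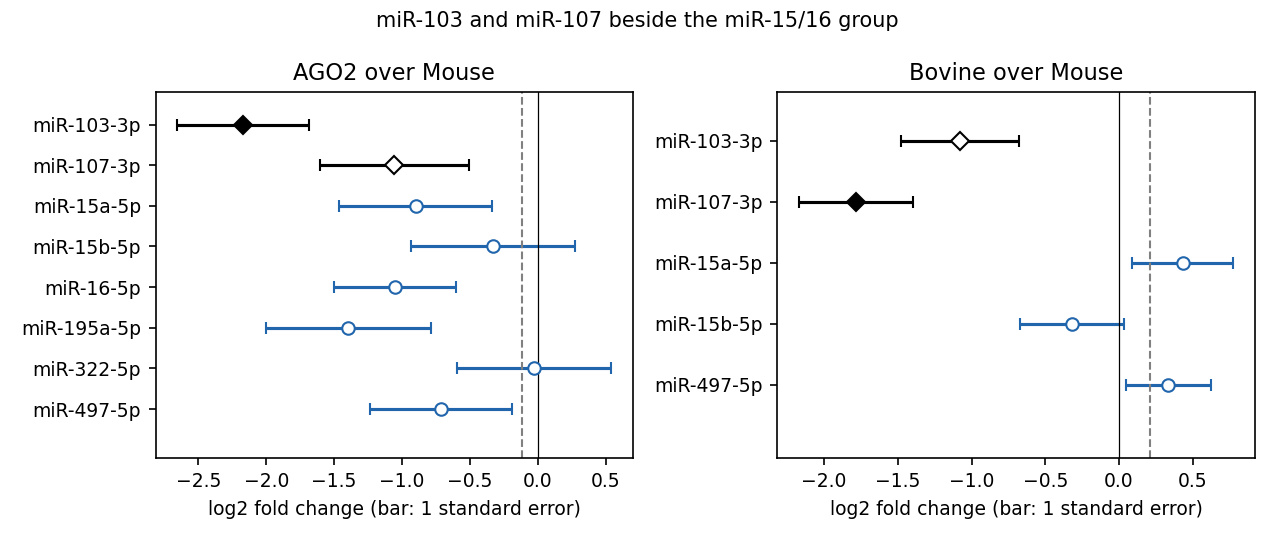
Log2 fold changes of miR-103-3p and miR-107-3p (diamonds) and of the tested members of the miR-15/16 group (circles), for AGO2 over Mouse (left) and Bovine over Mouse (right). Bars are 1 standard error, filled symbols have an adjusted p under 0.05 (edgeR), and the dashed line is the median of all miRNA tested. On the left only miR-103-3p, at -2.17, is filled, and on the right only miR-107-3p, at -1.78.

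Other miRNA with a known role in lipid or insulin metabolism were taken as a list of 37 names, of which 35 stood in the mouse list. In AGO2 against Mouse 30 were tested. The test called 4 higher, 4 lower and left 22 without a call, with a median log2 fold change of -0.32 beside -0.12 over all miRNA tested. The members thus moved in both directions, and the share called was 13.3% in each direction, near the 12.4% lower and 15.4% higher of all miRNA. Higher were miR-29a-3p (1.19 ± 0.35), miR-29c-3p (1.63 ± 0.60) and miR-30c-5p (1.75 ± 0.64, log2 fold change ± standard error). The miR-29 family is known for targets in the insulin pathway and in collagen. Lower were miR-24-3p (-1.93 ± 0.47), miR-34a-5p (-3.34 ± 0.67) and miR-375-3p (-1.71 ± 0.62), the last a miRNA of the pancreatic islet. The fourth in each direction, chosen for naming after the values were seen, were miR-33-5p at 2.86 ± 0.70, which is encoded within a gene of the sterol regulators and limits cholesterol export, and miR-185-5p at -3.23 ± 0.68. Their adjusted p in edgeR were 0.00404 and 0.00141.

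Among the abundant members of this list the direction varied. Levels of miR-29a-3p were 26147 and 37113 RPM in Mouse and 53497 and 76523 RPM in AGO2, higher in both AGO2 libraries (adjusted p = 0.0137, edgeR). Levels of miR-24-3p were 12483 and 12306 RPM in Mouse and 2950 and 2894 RPM in AGO2, lower in both (adjusted p = 0.00337, edgeR). Levels of miR-148a-3p, the most abundant on the list and a regulator of the low density lipoprotein receptor, were 87788 and 85990 RPM in Mouse and 98175 and 94608 RPM in AGO2, and its log2 fold change of 0.30 with a standard error of 0.28 did not pass (adjusted p = 0.402, edgeR).

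In Bovine against Mouse 25 of the list were tested, with 5 higher (20%), 6 lower (24%) and 14 without a call, beside 29.5% higher and 25.9% lower over all miRNA tested, and a median log2 fold change of -0.16 beside 0.21 over all. Higher in Bovine were miR-26a-5p (1.28 ± 0.26), miR-26b-5p (1.38 ± 0.31), miR-29c-3p (1.61 ± 0.35) and miR-125b-5p (2.82 ± 0.61). The fifth was miR-224-5p (4.21 ± 0.42), named after its value was seen. Among the 6 lower were miR-29a-3p (-1.28 ± 0.31) and miR-30c-5p (-3.51 ± 0.39).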

How the data were processed

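Poly-A stretches were trimmed by the authors, who used reads between 17 and 28 nt long and made counts per mature miRNA with miRDeep2 from precursors of miRBase 20 and predicted ones. The deposited values used here are raw counts, from 1 column per library. The column of normalised counts and the lists of predicted precursors, in which no family member was found, were not used. RPM were computed over the sum of each library. The main test was that of edgeR 4.0.16 under R 4.3.3 (TMM, quasi-likelihood F test, Benjamini-Hochberg adjustment, threshold 0.05). AGO2 against Mouse used miRNA above the minimum count of the study's methods in 1 library. Bovine against Mouse used miRNA of the same name and arm with at least 100 RPM in 1 library. The standard error was the log2 fold change divided by the square root of F. With 2 libraries per group, p-values measure the spread between these libraries only. DESeq2 1.42.0 was an alternative. The edgeR step was also run on simulated counts of independent libraries, and its outcome is not used as support here. Python 3.11.15, SciPy 1.17.1 and matplotlib 3.10.9 were used. Named were all members, list members from a mean of 1000 RPM in a group, the 5 miRNA nearest to each 3p arm and neighbours in rank. Members and lists were chosen with earlier results of these data known. Mouse positions are of GRCm38. No bovine annotation was used here.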

Additional observations from a re-analysis of the deposited data

Results flagged for a closer look

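The bovine list held a line under the human name hsa-miR-103a-2-5p, which is outside the members because of its prefix. Its sequence was identical to mmu-miR-103-2-5p. It had 20 and 29 counts in the Bovine libraries, or 2.13 and 2.73 RPM, above the limits of 0.319 and 0.283 RPM that a count of 0 allows. The report's comparisons did not use this line. With it, copy 2 took 20 of 22 and 29 of 31 counts of the miR-103 5p arms in Bovine, or 90.9% (95% exact interval 70.8% to 98.9%) and 93.5% (78.6% to 99.2%). These shares are of counts as listed, since a read without the first base fits both copies. The 5p arms then made up 0.0186% (95% Wilson interval 0.0123% to 0.0282%) and 0.0317% (0.0224% to 0.0450%) of the miR-103 counts in Bovine. A difference from Mouse was not tested.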

How the results depend on the processing

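No fold change or difference of the family changed its sign under the alternatives run. The labels give no replicate numbers, but the study numbers the samples of each group 1 and 2, without saying that a number marks a shared animal. With this number as a replicate block, added after seeing the data, miR-107-3p passed in AGO2 against Mouse at a log2 fold change of -1.14 (adjusted p = 0.0205, edgeR), 60 miRNA were higher and 61 lower, and miR-103-3p (-2.15) and the sum (-1.91) kept their calls. In Bovine against Mouse the block gave 40 higher and 33 lower and changed no call of the family. Across miRNA, the difference between library 1 and 2 in Mouse correlated with that in AGO2 at 0.28 (299 miRNA). With that in Bovine, where no animal can be shared, it correlated at -0.05 (139 miRNA). These values cannot decide whether Mouse and AGO2 libraries of the same number share an animal, which was not tested. Leaving out each library in turn, where a lone library is assumed to vary like the others, gave log2 fold changes for AGO2 against Mouse of -2.64 to -1.58 for miR-103-3p, -1.40 to -0.46 for miR-107-3p and -2.37 to -1.30 for their sum, with 31 to 62 miRNA higher and 21 to 33 lower. The count lower was 21 without Mouse library 1 and 23 without AGO2 library 1. For Bovine against Mouse it gave -1.57 to -0.59 for miR-103-3p, -2.21 to -1.63 for miR-107-3p and -1.72 to -0.75 for the sum, with 27 to 57 miRNA higher and 19 to 51 lower. The counts were 27 higher and 22 lower without Bovine library 2 and 19 lower without Bovine library 1. The log2 ratio of the paralogues differed by -1.27 to -0.74 in AGO2 and by 0.54 to 1.07 in Bovine. Over the alternatives that kept every library, the adjusted p of miR-103-3p in AGO2 was 0.000226 to 0.0123 (edgeR or DESeq2). That of miR-107-3p was 0.0205 to 0.232. In Bovine they were 0.00626 to 0.112 and 7.63e-06 to 0.0235.

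Some calls for Bovine against Mouse turned with other settings. The log2 fold change of miR-103-3p passed under DESeq2 (-1.26), with its size factors in edgeR (-1.26), without a filter (-1.55) and with matching by the study's list (-1.45). That of the sum did not pass with library totals alone (-1.05) or with matching by the first 22 nucleotides (-1.06), an alternative chosen after seeing the data, which gave 27 miRNA higher. Without a filter, 29 miRNA were higher in AGO2 and 69 lower in Bovine. The cause was not tested. With 2 libraries a group, the spread within the Mouse and AGO2 groups limits what could be called, and the depth of the AGO2 libraries limits the 5p arms.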
